A study of Mus musculus with 6 samples.

Results

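Long non-coding RNA (lncRNA) genes for which 5 or more different transcripts were listed over 6 samples of mouse sperm and testes were examined for their level, for the transcript that held most of the gene and for the change of that transcript between sperm and testes. They were chosen by the number of transcript identifiers per gene identifier in the union of the 6 tables. No minimum level was set. A transcript counted only if it was listed in a sample, so genes with more fragments could meet the rule more easily. The gene NONMMUG018329.2 was left out because it was set apart by the rule. In all, 217 of 44128 lncRNA genes met the rule, with 1315 of 52257 lncRNA transcripts. Of these genes 194 came from the NONCODE database (identifiers starting NONMMUG) and 23 had been assembled by the authors (identifiers starting LXLOC). RNA came from C57BL/6 mice (C57BL/6J in the study's methods) of 3 to 5 months of age by the labels, while the methods give a lower range in weeks. The 4 sperm samples held mature sperm from the cauda epididymis and the vas deferens, pooled over mice and purified, and the 2 testes samples held testes of these mice, with no treatment in either group. The samples are called sperm-1 to sperm-4, testes-1 and testes-2 after their titles. Sperm-2, sperm-3 and sperm-4 were compared with testes-1 and testes-2, since sperm-1 had been dropped by the study on the ground of its correlations, and its values are given beside the others.

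An lncRNA has no evident coding frame, and one lncRNA gene can give rise to several isoforms through different start sites, splice junctions and polyadenylation sites. Testes are known for the wide range of lncRNA they make during spermatogenesis, while mature sperm hardly transcribe and carry RNA that remains from earlier stages. In short-read sequencing RNA is broken into fragments before the library is made, so a fragment from a stretch that several isoforms share fits each of them, and a program has to divide it. The values described here are therefore estimates: an estimated count of fragments, which need not be whole, and FPKM, which scales that count by the length of the transcript and by the fragments of the sample. The sum over the transcripts of a gene is called the gene sum, and the transcript with the highest mean FPKM in a group is called dominant there. The genes are known here by identifier alone, and no function is attached to them.

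Most of the genes only just met the rule. There were 122 genes with 5 transcripts, 40 with 6, 28 with 7, 14 with 8, 4 with 9 and 9 with 10 or more, up to 19, and 293 genes with 4 transcripts lay just outside it. Genes with 4 transcripts had a median gene sum of 2.46 FPKM in sperm and 4.81 in testes, and genes with 5 had 3.28 and 5.22. The transcripts were 203 to 20771 bases long, with a median of 1757 bases against 1227 for lncRNA genes with a single transcript. Within a gene the longest transcript was 5.48 times as long as the shortest (median over genes).

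No sample showed 5 isoforms for most of these genes. Sperm-2, sperm-3 and sperm-4 listed 566, 160 and 281 of the 1315 transcripts, sperm-1 listed 210, and testes-1 and testes-2 listed 872 and 724. All sperm samples lay below both testes samples, and the ratio of the means was 0.421 (exact two-sided permutation test, p = 0.2, the smallest that 3 against 2 samples can give; 0.3 after Benjamini-Hochberg adjustment over 3 tests). Depth moved with the group, since the estimated counts summed to 366455 to 1058017 in the sperm samples and to 2866856 and 2606086 in testes. At the depth of sperm-3 the expected numbers were 375, 147 and 248 in sperm-2, sperm-3 and sperm-4 and 481 and 384 in testes, a ratio of 0.592. Genes with 5 or more transcripts listed in one sample numbered from 0 in sperm-3 to 69 in testes-1. A single sample listed 613 of the transcripts (46.6%) and 59 were listed in all 6. Added up, the testes samples listed 5 or more transcripts for 131 genes and sperm-2 to sperm-4 for 41, so the number of isoforms was mostly reached by adding up samples.

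Over all 217 genes the members held 1.99%, 2.26% and 1.97% of the estimated counts in sperm-2, sperm-3 and sperm-4, 2.32% in sperm-1, and 2.18% and 2.22% in testes. The ranges of the groups overlapped, and the ratio of the means was 0.942 (exact two-sided permutation test, p = 0.6, 0.6 after adjustment). NONMMUG020754.2 alone held 24.5% to 33.8% of the members' counts in each of the 6 samples, and the 8 genes with the highest level held 44.4% to 56.9%. Marker lists of cell types were read beside the members. Of 10 late spermatid and sperm genes, 9 were listed in at least 1 of sperm-2 to sperm-4 and 10 in testes, with summed levels of 323 to 539 FPKM in the 4 sperm samples and 607 and 499 in testes. Prm2, a protamine that packs sperm DNA, carried most of the sum in sperm-2 to sperm-4, with 239, 233 and 438 FPKM, while Prm1, Tnp1 and Tnp2 were below testes in all 4 sperm samples, Odf1 was at 0 in them and sperm-3 listed only Prm2, Prm3 and Akap4. All 5 measured meiotic markers and all 3 measured spermatogonia markers were at 0 in the 4 sperm samples. In the deeper testes samples they summed to only 29 and 34 counts (meiotic) and 6 and 9 (spermatogonia). Sertoli markers summed to at most 2.21 FPKM in sperm, against 4.28 and 4.75 in testes. Epididymis markers reached at most 2.85 (testes 0.1 and 2.91), leukocyte markers 0.86 (3.81 and 2.64) and red cell markers 0.50 (0.92 and 0.61). With levels so low in testes, these lists cannot tell how pure the sperm samples were. Leydig cell markers summed to 4.31, 27.5 and 2.96 FPKM in sperm-2, sperm-3 and sperm-4 and to 22.2 and 20.2 in testes. In sperm this was nearly all Star, with Cyp17a1 listed in sperm-2 alone and the other 3 at 0, and their part in the values below was not tested.

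The gene sums were compared first. NONMMUG020754.2 was by far the most abundant of the genes and did not pass the test: it stood at 9209, 14374 and 9964 FPKM in sperm-2, sperm-3 and sperm-4, at 13716 in sperm-1 and at 10170 and 13465 in testes. The sperm and testes values overlapped, and the log2 fold change (sperm over testes, from counts) was -0.40 ± 0.38 (SE; edgeR adjusted p = 0.461). NONMMUG007415.2, the second by level, was about as high in every sperm sample, with 1025, 1107 and 1144 FPKM in sperm-2 to sperm-4 and 954 in sperm-1, against 36.9 and 25.6 in testes. All 4 sperm values were far above both testes values, edgeR gave an adjusted p of 8.76e-09 at a log2 fold change of 4.89 (SE 0.62), and the gene was called higher under all 12 alternatives tried.

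Across the genes, 196 of the 217 had at least 1 FPKM in 2 or more of the 5 samples and were tested, together with every other lncRNA and mRNA gene. A gene passed at an adjusted p below 0.05 with more than a 2-fold change. Of the 196, 10 rose (5.10%, against 4.15% of all 24432 genes tested) and 25 fell (12.8%, against 17.6%). All 3 sperm values lay above both testes values in 28 of the 196 (14.3%, against 7.52% of all genes tested) and below them in 67 (34.2%, against 44.8%). The median log2 fold change of the members was -0.97, or -0.90 with 7 genes that were at 0 in a whole group set to their bound, and that of all genes tested was -1.24. In bulk RNA of this kind fewer cells of a type and less RNA per cell cannot be told apart. The members' counts depended on single samples: 3 genes rose without sperm-2, 25 without sperm-3, 4 without sperm-4, 6 without testes-1 and 3 without testes-2. The number of genes that fell was 15 without sperm-2, 25 without sperm-3, 8 without sperm-4, 14 without testes-1 and 12 without testes-2. With the numbering of replicates as a block and all 4 sperm samples, 6 rose and 18 fell (453 and 1113 of all 25023 genes tested). All genes tested moved likewise: 1013 rose with all 5 samples, but 479, 1748 and 393 without sperm-2, sperm-3 and sperm-4 and 260 and 253 without testes-1 and testes-2. Those that fell numbered 4306, and 1565, 2566, 580, 835 and 627 in the same order.

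Of the 10 genes that rose, 3 were called under all 12 alternatives: NONMMUG007415.2, NONMMUG046372.2 and NONMMUG002482.2. NONMMUG002482.2 stood at 458, 416 and 467 FPKM in sperm-2 to sperm-4 and 448 in sperm-1, against 31.7 and 27.1 in testes. Sperm and testes did not overlap, and edgeR gave an adjusted p of 4.11e-06 at a log2 fold change of 3.86 (SE 0.63). NONMMUG046372.2 had 325, 32 and 75 counts in sperm-2 to sperm-4 and 38.0 in sperm-1, against 12.0 and 6.00 in testes, or 244, 294 and 133 FPKM (57.7 in sperm-1) against 3.17 and 1.67. Its sperm values differed more than 2-fold among themselves but were all above testes, and edgeR gave an adjusted p of 8.93e-06 at a log2 fold change of 5.70 (SE 0.96). In sperm-3, 263 of the 294 FPKM lay on NONMMUT074725.2 (256 bases) with 19.7 counts. That transcript was at 0 in sperm-4.

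The other genes that rose lost their call when single samples were left out. NONMMUG035236.2 had 182, 27.7 and 122 FPKM in sperm-2 to sperm-4 against 8.19 and 8.40 in testes (edgeR adjusted p = 0.00411 for a log2 fold change of 3.81, SE 0.96), and its adjusted p was 0.0662 without sperm-2 and 0.0632 without testes-2. NONMMUG036405.2 had 180, 116 and 142 FPKM against 25.2 and 13.5 (edgeR adjusted p = 0.0117 for a log2 fold change of 2.53, SE 0.70), and its adjusted p was 0.0662 without sperm-2, 0.0924 without sperm-4 and 0.156 without testes-2. NONMMUG021602.2 had 50.6, 7 and 11 counts in sperm against 4.95 and 5.48 in testes (edgeR adjusted p = 0.0477 for a log2 fold change of 3.83, SE 1.42). It was lost without sperm-2 (0.0826), sperm-4 (0.123), testes-1 (0.785) or testes-2 (0.769). In NONMMUG030424.2, NONMMUG023717.2 and NONMMUG056839.1 a sperm sample lay at or below testes, so that 7 of the 10 genes had no overlap. NONMMUG023717.2 and NONMMUG056839.1 were named after their values were seen.

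**Figure D1:**
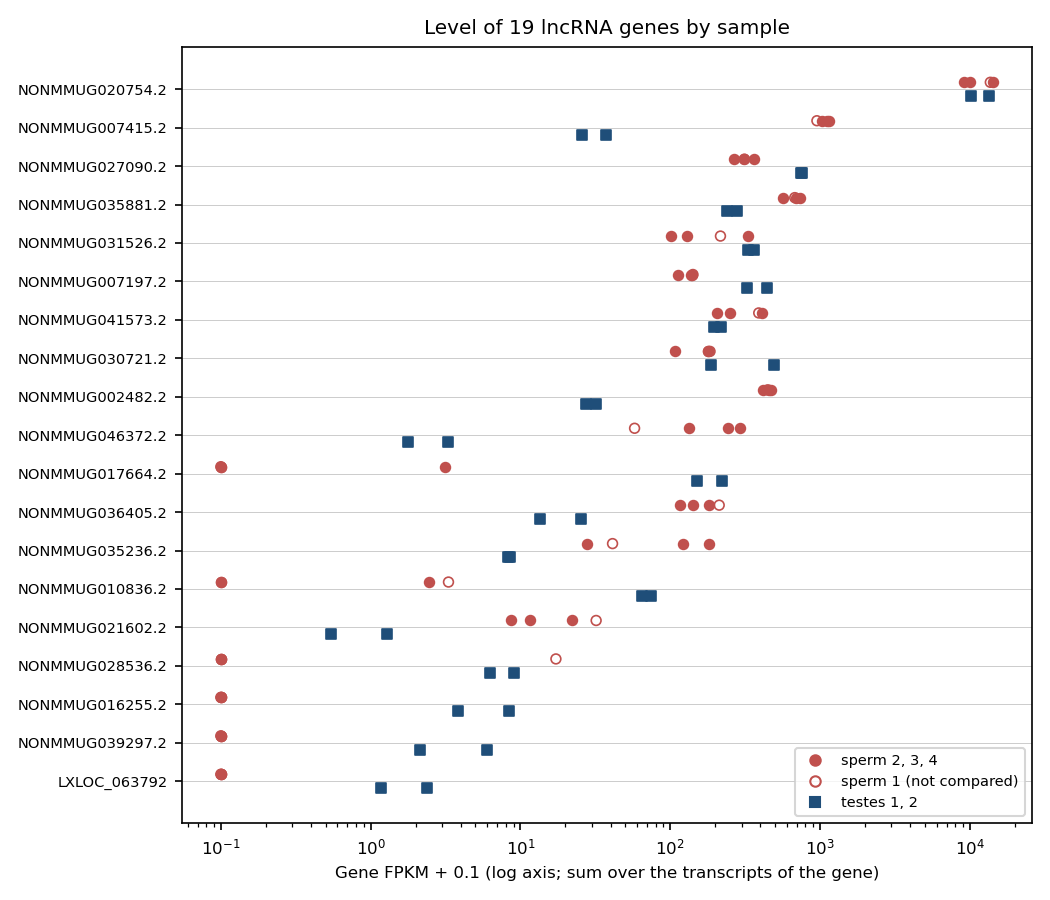
Gene sums in FPKM + 0.1 on a log axis for the 19 genes named for their level or for a called difference, with 1 point per sample (filled circles for sperm-2 to sperm-4, open circles for sperm-1, squares for testes). NONMMUG007415.2 sits at 1025 to 1144 FPKM in sperm against 36.9 and 25.6 in testes, and in 4 genes at the bottom all 3 sperm samples sit at 0.

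Genes that fell were of more than one kind. Of the 25, 5 were at 0 in all 3 sperm samples, 8 had an adjusted p above 0.04, and 24 had no overlap between the groups. NONMMUG017664.2 was the clearest case: testes held 1021 and 1354 counts of it and sperm-2 held 4.86, while the remaining 3 sperm samples were at 0. In testes it stood at 152 and 221 FPKM. EdgeR gave an adjusted p of 1.50e-10 at a log2 fold change of -7.71 (SE 0.86), and the gene was called lower under all 12 alternatives. NONMMUG010836.2 had 3.00 counts in sperm-2, 0 in sperm-3 and sperm-4, 6.00 in sperm-1 and 168 and 170 in testes. Its pooled ratio of testes to sperm was 39.8 (exact 95% interval 13.5 to 194, which covers counting error only), and its edgeR adjusted p of 0.00145 became 0.0926 without testes-2.

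In 4 further genes a fold change could only be given as a bound, computed against 3 counts per sperm library. NONMMUG016255.2 had 0 counts in sperm and 53.0 and 34.3 in testes, at least 2.80-fold higher there. NONMMUG028536.2 had 48.0 and 33 counts in testes, at least 2.61-fold higher than in sperm-2 to sperm-4, but 14 counts in sperm-1, and with that sample its edgeR adjusted p rose from 0.0352 to 0.533. For NONMMUG039297.2 (48.3 and 13.2 counts) and LXLOC_063792 (25.9 and 10.8) the bounds were 1.94-fold and 1.17-fold, and both had an edgeR adjusted p of 0.0477. All 4 genes lost their call without sperm-2 (edgeR adjusted p 0.0535, 0.0558, 0.0662 and 0.0662) and without sperm-4 (0.125, 0.133, 0.174 and 0.174), and LXLOC_063792 also without sperm-3 (0.0625).

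Other genes fell from a level that was well measured in sperm. NONMMUG007197.2 had 457, 212 and 263 counts in sperm-2 to sperm-4 and 4142 and 5150 in testes, or 113, 139 and 137 FPKM (142 in sperm-1) against 323 and 444. All sperm values lay below testes, and edgeR gave a log2 fold change of -2.05 with an SE of 0.47 and an adjusted p of 0.00152, which was 0.161 without sperm-4. NONMMUG027090.2 stood at 266, 361 and 310 FPKM in sperm, 313 in sperm-1, and 752 and 753 in testes (edgeR adjusted p = 0.0336 for a log2 fold change of -1.51, SE 0.48). Its adjusted p was 0.0662, 0.0873 and 0.269 without sperm-2, sperm-3 and sperm-4. Besides NONMMUG017664.2, the genes called lower under all 12 alternatives were NONMMUG018725.2, NONMMUG023834.2 and NONMMUG025278.2, which were named after their values were seen. NONMMUG018725.2 had 40.8, 6.00 and 29.5 counts in sperm-2 to sperm-4 and 3537 and 1598 in testes (edgeR adjusted p = 1.31e-08 for a log2 fold change of -4.70, SE 0.61), while sperm-1, at 424606 counts in all, had 94.9.

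Part of the genes held fragments enough in every sample. In 47 of the 217 genes the gene sum was 10 or more counts in each of the 5 samples. These 47 are used below as the genes that can show which isoform dominates. Among them 5 rose (10.6%, against 14.7% of 2156 genes of any kind that met the same minimum) and 5 fell (10.6%, against 16.7%). Their median log2 fold change was 0.07, and that of the 2156 genes was -0.05. The minimum itself leaves out genes that were low in a shallow sperm sample. All 3 sperm values lay above both testes values in 17 (36.2%, against 37.5% of the 2156) and below them in 12 (25.5%, against 30.2%).

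The dominant transcript was the same in sperm and testes in most of the well-measured genes. Over all genes with a value in both groups it was the same in 93 of 201 (46.3%). In the 47 genes with 10 or more counts in each sample it was the same in 30 (63.8%, Wilson 95% interval 49.5% to 76.0%). This interval takes the genes as independent draws and does not cover the spread between samples. Fewer isoforms went with more genes of that kind: the share was 68.3% in 41 lncRNA genes with 4 transcripts, 79.7% in 123 with 3 and 83.2% in 298 with 2, measured with the same minimum. The difference between these classes was not tested. With fewer candidates the same transcript is also picked more often at random, and that level was not computed. Dominance was read by FPKM. The transcript dominant by FPKM also had the highest mean count in 43 of the 47 genes in sperm and in 37 in testes. NONMMUG011265.2 is among the 30, though NONMMUT018006.2 had the most counts of it in testes.

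The dominant transcript held a median of 75.04% of the gene FPKM in sperm and 67.8% in testes over the 47 genes. It held over 90% in 10 genes in sperm and in 9 in testes, and under 50% in 7 and 13. Read in single samples, the median share of the top transcript was 78.5%, 89.5% and 81.5% in sperm-2, sperm-3 and sperm-4, 94.9% in sperm-1, and 71.3% and 69.6% in testes. Every sperm sample was above both testes samples, by 12.7 percentage points in the means (SD 5.72 in sperm, n = 3, and 1.20 in testes, n = 2; exact two-sided permutation test, p = 0.2, 0.3 after adjustment). Depth moved with this share too: the shallowest sperm samples, sperm-1 and sperm-3, had the highest values. Another measure was the probability that 2 counts of a gene fall on the same transcript. It is free of depth only where fragments fall independently. Its medians were 68.1%, 87.3% and 70.7% in sperm-2 to sperm-4 and 56.3% and 53.8% in testes. The shallowest of these samples, sperm-3, was again the highest, and the part of depth in this measure was not tested.

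**Figure D2:**
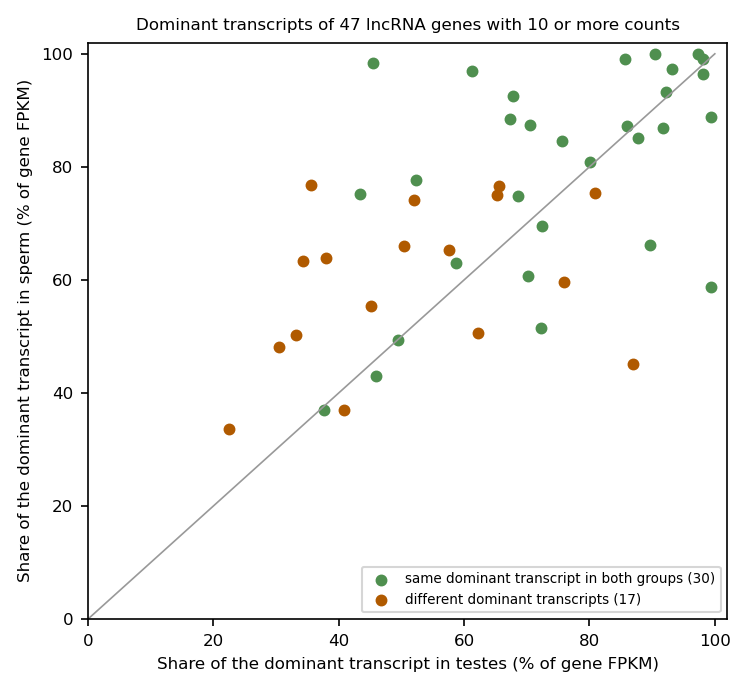
Share of gene FPKM held by the dominant transcript in testes (x axis, percent) and in sperm (y axis, percent) for the 47 genes with 10 or more counts in each of 5 samples, with a line where both are equal. The 30 genes with the same dominant transcript and the 17 with different ones are coloured apart, and the medians are 67.8% in testes and 75.04% in sperm.

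Of the 8 most abundant genes, 6 had the same top transcript in all 5 samples, and in NONMMUG027090.2 and NONMMUG031526.2 it varied within a group. In NONMMUG020754.2 the transcript NONMMUT033771.2 (632 bases) held 82.5%, 86.9% and 85.1% of the gene FPKM in sperm-2 to sperm-4, 89.1% in sperm-1 and 86.8% and 88.6% in testes. Nearly all of the rest lay in NONMMUT033776.2 (265 bases), at 10.95% to 17.5%. In NONMMUG007415.2 the transcript NONMMUT011719.2 (1162 bases) held 89.0% to 97.7% in the 4 sperm samples and 93.2% and 90.6% in testes, so the main isoform of this gene was kept while its sum rose. In NONMMUG035881.2 the transcript NONMMUT057775.2 (2260 bases) held 99.1% in sperm and 98.2% in testes. Its gene sum was 567, 731 and 693 FPKM in sperm and 241 and 281 in testes, with no overlap, but an edgeR adjusted p of 0.102 (log2 fold change 1.08, SE 0.49) that did not pass the test. NONMMUG041573.2 stood at 206, 412 and 253 FPKM in sperm-2 to sperm-4, 390 in sperm-1 and 196 and 218 in testes, with overlap (edgeR adjusted p = 0.945), and its NONMMUT067148.2 (1276 bases) held 51.5% in sperm and 72.2% in testes. In sperm-1 it held only 15.2%, and NONMMUT067150.2 (1159 bases) was on top there with 66.6%. NONMMUG030721.2 had 179, 107 and 179 FPKM in sperm-2 to sperm-4 against 496 and 186 in testes, without overlap, but did not pass (edgeR adjusted p = 0.248). Its short NONMMUT049610.2 (412 bases) held 84.5% in sperm and 75.6% in testes.

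The 17 genes with different dominant transcripts did not lean to a length, since the sperm transcript was the shorter in 9 and the longer in 8. How many of them differed beyond the spread within a group was asked by taking the top transcript of each sample. In 23 of the 47 genes 1 transcript was on top in all 5 samples. In 20 the top transcript varied within a group, in 18 of them among sperm replicates and in 9 between the testes samples. The 3 sperm samples had the same top transcript in 61.7% of the 47 genes. It was 53.7%, 60.2% and 79.9% in lncRNA genes with 4, 3 and 2 transcripts. For the testes samples it was 80.9%, against 75.6%, 90.2% and 91.9%. Only 4 genes had 1 top transcript in the 3 sperm samples and another in both testes samples: LXLOC_040912, NONMMUG033747.2, NONMMUG019672.2 and NONMMUG005081.2. The share of other genes with this pattern is not given here.

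LXLOC_040912 was the clearest of the 4. Its transcript LTCONS_00069894 (5023 bases) had 641, 68.7 and 26.6 counts in sperm-2, sperm-3 and sperm-4 and 370 in sperm-1, and 0 in both testes samples. LTCONS_00069898 (4042 bases) was absent from all 4 sperm samples and took 1469 and 468 counts in testes. The gene sum was 150, 63.0 and 10.4 FPKM in sperm and 128 and 85.4 in testes, with overlap (edgeR adjusted p = 0.756 for a log2 fold change of -0.30, SE 0.60). The remaining 3 transcripts were each listed in 1 sample only: LTCONS_00069897 (5082 bases) with 159 counts in sperm-2, LTCONS_00069899 (3868 bases) with 35.7 in sperm-3 and LTCONS_00069893 (4106 bases) with 432 in testes-2. Replicates of 1 group thus also differed by whole transcripts, and the gene sum was not a whole number in any of the 6 samples. The change in isoform use had an edgeR adjusted p of 9.13e-04 and was called under all 9 alternatives that could be fitted, which do not include leaving out a testes sample. In the main fit only LTCONS_00069894 and LTCONS_00069898 were tested, each having passed the minimum through the group where it was listed. The transcripts listed in 1 sample only did not enter that fit. Its outcome was therefore largely fixed by this choice, and it adds little to the counts above.

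NONMMUG033747.2 showed a like pattern with 8 transcripts. NONMMUT054394.2 (5565 bases) had 546, 177 and 305 counts in sperm-2 to sperm-4, 171 in sperm-1 and 0 in testes, while NONMMUT054409.2 (3913 bases) was absent from sperm and took 410 and 415 counts in testes. Their shares were 84.2%, 59.2% and 91.1% in sperm for the first and 71.4% and 61.0% in testes for the second. The gene sum was 110, 148 and 119 FPKM in sperm and 51.5 and 67.3 in testes, without overlap, at an edgeR adjusted p of 0.0546 (log2 fold change 1.45, SE 0.57), which did not pass. Its change in isoform use had an edgeR adjusted p of 9.13e-04 and was called under 9 of 11 alternatives, the exceptions being those without a testes sample (0.809 without testes-1 and 0.517 without testes-2).

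In the other members of the 4 the change in isoform use did not pass the test (edgeR adjusted p = 0.270 for NONMMUG019672.2 and 0.272 for NONMMUG005081.2), although both passed without sperm-2 (0.0376 and 0.0389). In NONMMUG019672.2 the transcript NONMMUT103348.1 (6831 bases) held 43.8%, 100% and 70.5% in sperm-2 to sperm-4 but was at 0 in sperm-1, where all 13 counts lay on the 1036-base NONMMUT103349.1, the top transcript of testes by FPKM (58.4% and 37.7%). By counts it was not on top there, since NONMMUT103347.1 (9211 bases) had 511 counts against 108 in testes-1, and NONMMUT103348.1 had 170 against 28 in testes-2. In NONMMUG005081.2 the transcript NONMMUT008227.2 (3237 bases) held 77.5%, 84.5% and 70.4% in sperm and 32% and 31.2% in testes. There NONMMUT008240.2 (4179 bases) was ahead with 36.3% and 32.4%, by less than 5 percentage points. The gene sum of NONMMUG005081.2 passed the test (edgeR adjusted p = 0.0477 for a log2 fold change of 1.96, SE 0.68), but not without sperm-2 (0.0993), sperm-4 (0.174) or testes-2 (0.882).

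**Figure D3:**
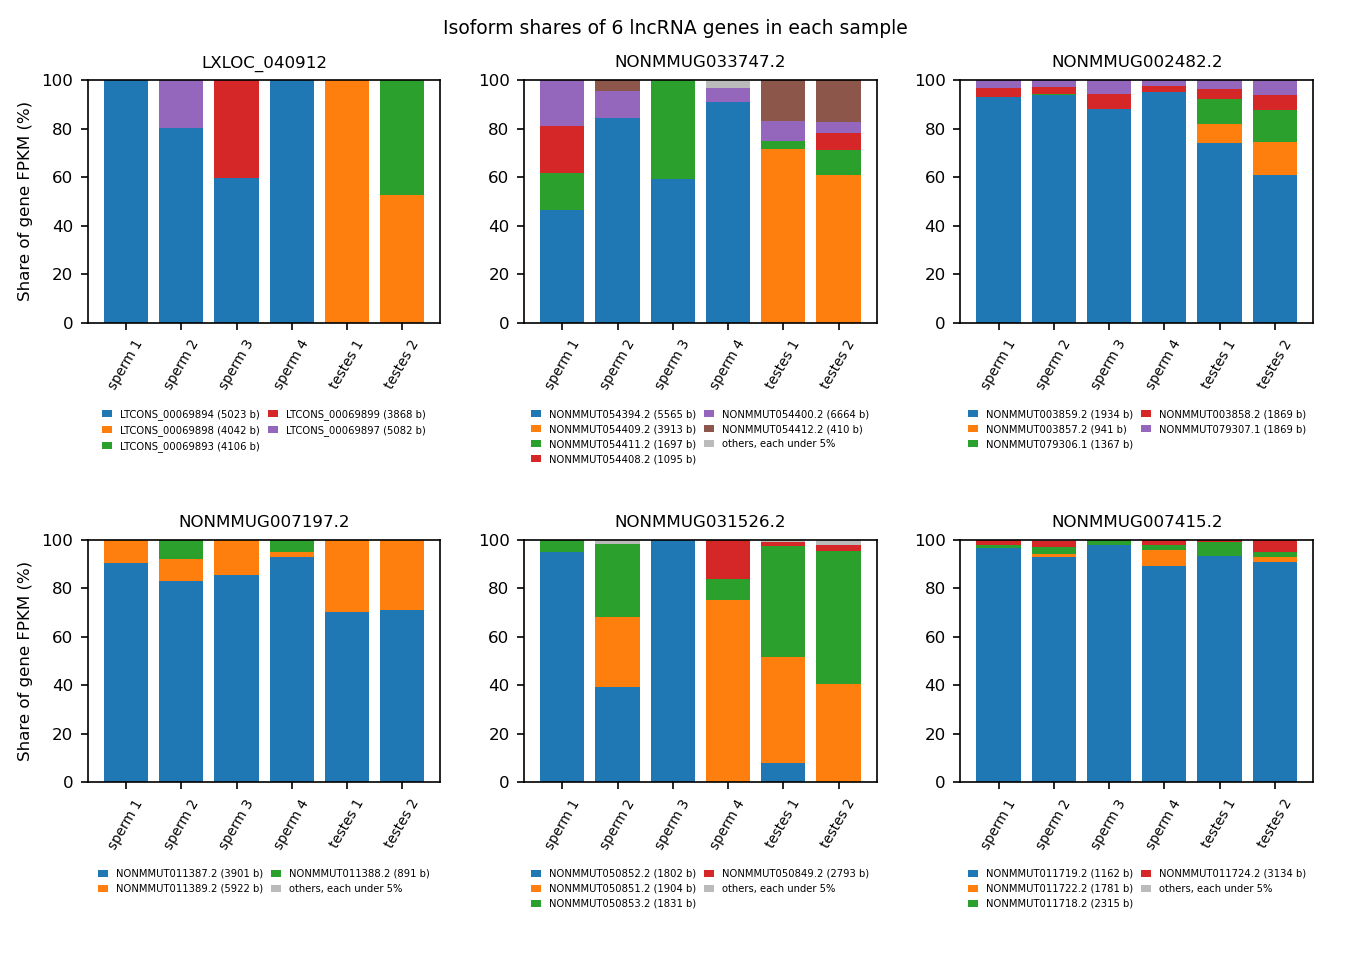
Share of gene FPKM (percent, stacked to 100) of each transcript in each of the 6 samples for 6 genes, with transcript lengths in bases and transcripts under 5% in every sample drawn as one grey block. LXLOC_040912 and NONMMUG033747.2 have one main transcript in sperm and another in testes, NONMMUG002482.2 and NONMMUG007197.2 keep the main transcript at a lower share in testes, NONMMUG031526.2 varies among the sperm samples, and NONMMUG007415.2 holds 1 transcript near 90% or above throughout.

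A change in isoform use was tested in the 110 genes with 2 or more transcripts that passed the minimum, by asking whether the transcripts of a gene moved by different factors. The test, diffSpliceDGE of edgeR, takes each estimated count as measured and does not know how fragments were divided. It called 11 of the 110 genes (10.0%, against 6.37% of all 1759 genes tested), and 28 had an unadjusted p below 0.05. Without sperm-2, sperm-3 and sperm-4, 78 of 1421, 122 of 1671 and 28 of 1527 genes of any kind were called. The members' number was 9 of 95, 11 of 107 and 5 of 99 in these fits. Without testes-1 or without testes-2 it was 0, with 4 genes of 75 and 4 of 82 at an unadjusted p below 0.05. Among genes of any kind 1 of 1005 and 2 of 1106 were called in these fits, against 112 of 1759 with all 5 samples, and LXLOC_040912 and NONMMUG044473.2 could not be fitted there. With the replicate block and all 4 sperm samples the members' number was 4 of 118 (57 of 1897 genes of any kind), and 3 were among the 11. By limma's diffSplice on log2(FPKM + 1) it was 12 of 110 (137 of 1759 genes of any kind), and 9 were among the 11. Of the 11 genes 4 had different dominant transcripts in sperm and testes, and in 3 the gene sum was called as well.

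NONMMUG002482.2 had the lowest p (edgeR adjusted p = 5.49e-04), although its dominant transcript was the same throughout. It was called under 8 of 11 alternatives, the exceptions being the replicate block (0.126) and leaving out testes-1 (0.962) or testes-2 (1.00). NONMMUT003859.2 (1934 bases) held 94.0%, 88.2% and 95.2% in sperm-2 to sperm-4, 93.0% in sperm-1 and 73.9% and 60.7% in testes. In testes 2 minor transcripts took up the difference: NONMMUT003857.2 (941 bases) had 6.67 and 8.78 counts there and 0 in sperm, and NONMMUT079306.1 (1367 bases) had 12.3 and 12.2 counts there and 2 in sperm-2 alone. The change in shares therefore rested on few testes fragments, while the gene sum rose by 3.86 on the log2 scale.

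NONMMUG007197.2 was similar in kind. NONMMUT011387.2 (3901 bases) held 83.1%, 85.6% and 92.8% in sperm and 70.0% and 70.8% in testes, and NONMMUT011389.2 (5922 bases) 9.03%, 14.4% and 2.11% in sperm and 29.7% and 28.9% in testes (edgeR adjusted p = 0.0304). It was called under 2 of 11 alternatives, with an adjusted p of 0.266 without sperm-2 and 0.548 without sperm-4. In NONMMUG020781.2 (edgeR adjusted p = 0.00230) the dominant transcript was NONMMUT033836.2 (13995 bases, 36.9%) in sperm and NONMMUT033840.2 (6517 bases, 40.8%) in testes, but the order of these transcripts also changed among sperm samples. What set testes apart there was NONMMUT033838.2 (8511 bases), which took 227 and 179 counts in testes-1 and testes-2 and none in the 4 sperm samples. Without sperm-4 the adjusted p of this gene was 0.0508. NONMMUG039338.2 (edgeR adjusted p = 0.0417, called under 4 of 11 alternatives, and 0.255 without sperm-4) kept NONMMUT063695.2 (2778 bases) on top at 89.9%, 71.1% and 97.9% in sperm and 69.2% and 65.2% in testes, and its NONMMUT063696.2 (2848 bases) had 38.6 and 57.0 counts in testes but none in sperm.

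In NONMMUG011265.2, which was called for isoform use at an edgeR adjusted p of 0.0413 but under only 3 of 11 alternatives (0.174 without sperm-4), the scale of the gene sum mattered. The gene stood at 129, 76.4 and 55.4 FPKM in sperm and at 22.5 and 15.6 in testes, without overlap, yet the fold change from counts was only 0.10 on the log2 scale, with an SE of 0.74 and an adjusted p of 0.939 by edgeR. In testes 241 and 143 counts lay on NONMMUT018006.2 (9876 bases), which had 18.1, 0 and 0 counts in sperm-2 to sperm-4 and 68.0 in sperm-1, and in sperm nearly all lay on NONMMUT018007.2 (1052 bases). A fragment on the shorter transcript weighs more in FPKM. On log2(FPKM + 1) or log2(FPKM + 0.1) limma gave log2 fold changes of 2.07 and 2.12, which passed the test (limma adjusted p = 0.0409 and 0.0458), while from counts it was -0.71 without sperm-2. Of the 47 genes this was the only one whose ratio of groups differed by more than 1 on the log2 scale between FPKM and depth-scaled counts, and the sign was the same on both scales in all 47.

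NONMMUG044473.2 holds the transcript NONMMUT071792.2 (5119 bases), which the study singled out as one of its numbered lncRNA. This transcript had 103, 29.0 and 32 counts in sperm-2 to sperm-4, 34.0 in sperm-1 and 49.5 and 125 in testes. It held 93.0%, 100% and 100% of the gene FPKM in sperm, 100% in sperm-1 and 36.9% and 80.4% in testes, where the samples thus differed widely. The gene sum did not pass the test (20.5, 15.6 and 12.3 FPKM in sperm, 9.17 and 11.8 in testes, for a log2 fold change 0.44 ± 0.80 as SE, with 0.725 as the edgeR adjusted p). The change in isoform use had an edgeR adjusted p of 0.0412, and of 0.0862, 0.0509 and 0.118 without sperm-2, sperm-3 and sperm-4, and it was called under 3 of 9 alternatives.

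The tests of single transcripts gave more calls than the gene sums. Of 405 tested transcripts 40 rose (9.88%, against 4.48% of all 25822 tested) and 91 fell (22.5%, against 19.3%). Of those that rose 23 were at 0 in both testes samples, and of those that fell 60 were at 0 in all 3 sperm samples. In 15 of the former and 14 of the latter the gene itself held 10 or more counts in each sample of the group where the transcript was at 0. In 8 genes at least 1 transcript rose and at least 1 fell, and in 5 of these the gene sum was not called. No share over other genes is given for these patterns. The counts were not steady: 7, 47 and 15 transcripts rose without sperm-2, sperm-3 and sperm-4, and 9 and 7 without testes-1 and testes-2. Those that fell numbered 20, 60 and 17, and 9 and 7. Of all transcripts tested 1158 rose with all 5 samples and 269, 1854, 450, 287 and 255 in these fits, while 4986 fell with all 5 and 527, 2723, 608, 699 and 564 in these fits. With all 4 sperm samples 12 rose and 89 fell (653 and 5381 of all 26621 transcripts tested). With the replicate block it was 10 and 29 (425 and 1072).

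The limits of such isoform values, read assignment among them, were described by 3 measures. The first was agreement between replicates. Whether replicates disagreed through their pools, their depth or the division of fragments was not tested. The same transcript was on top in 70.2% to 80.9% of the 47 genes in the 3 pairs of sperm samples, in 80.9% in the testes pair and in 61.7% to 68.1% in the 6 pairs of a sperm and a testes sample. The median share of gene FPKM that lay on different transcripts was 16.1% to 21.5% in sperm pairs, 9.95% in the testes pair and 20.1% to 41.5% between the groups. The lowest value between the groups thus lay within the range of the sperm pairs. The transcript counts of a gene also differed between replicates by more than counting error, with a median chi-square per degree of freedom of 4.05 to 8.17 in sperm pairs and 4.01 in the testes pair, against 5.08 to 10.7 between the groups. These pairs share samples, and no test was made over them.

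**Figure D4:**
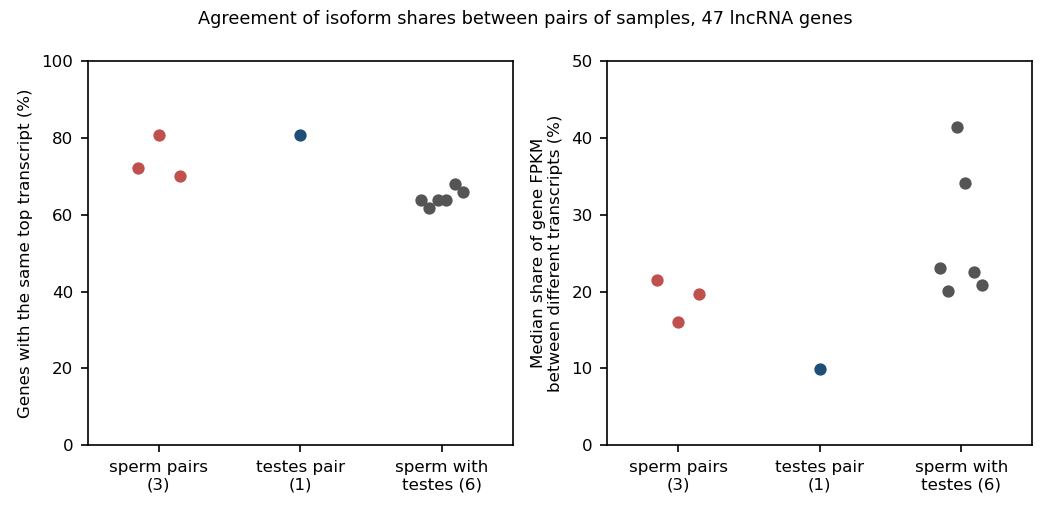
Left, percent of the 47 genes with the same top transcript in each pair of samples; right, median share of gene FPKM (percent) that lay on different transcripts in each pair, with 1 point per pair (sperm-2 to sperm-4 and testes). Sperm pairs lie at 70.2% to 80.9% and at 16.1% to 21.5%, and sperm with testes at 61.7% to 68.1% and at 20.1% to 41.5%.

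NONMMUG031526.2 showed the spread within sperm. Its transcripts NONMMUT050852.2 (1802 bases), NONMMUT050853.2 (1831 bases) and NONMMUT050851.2 (1904 bases) are alike in length. The first had 74.2 counts in sperm-2, 213 in sperm-3, 0 in sperm-4 and 154 in sperm-1. The last had 57.5, 0, 92.9 and 0 in the same samples, so that sperm-3 and sperm-4 put the gene on different transcripts. In testes the gene lay on NONMMUT050851.2 (774 and 716 counts) and NONMMUT050853.2 (772 and 930). The gene sum was 101, 331 and 130 FPKM in sperm, 216 in sperm-1 and 329 and 365 in testes, and it was whole in all 6 samples. In NONMMUG023834.2, too, all counts of sperm-1 and sperm-3 lay on 1 transcript (NONMMUT038553.2, 9 and 11) and nearly all of sperm-2 and sperm-4 on another (NONMMUT038554.2, 34.9 and 22).

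The second measure was the share of estimated counts that were whole numbers (within 0.01), since a count with decimals shows that fragments were divided. Of the listed transcripts of the members, 29.9%, 51.9% and 42.7% had a whole count in sperm-2, sperm-3 and sperm-4, 41.9% in sperm-1 and 21.9% and 30.8% in testes. For lncRNA genes with 1 transcript the sperm mean was 68.1% ± 3.25 (SD, n = 3) and the testes mean 65.3% ± 0.273 (SD, n = 2), and all 6 samples were above the members' values. Transcripts with decimals held 77.4% ± 6.97 (SD, n = 3) of the members' sperm counts and 88.1% ± 3.18 (SD, n = 2) of their testes counts. For lncRNA genes with 2 to 4 transcripts the means were 67.6% and 78.9%. Even for those with 1 transcript they were 44.7% and 42.7%. After summing over the gene, 64.4% ± 14.0 (SD, n = 3) of the members' gene sums were whole (within 0.05) in sperm, and in testes it was 39.3% ± 0.0109 (SD, n = 2). The means were 76.9% and 64.9% for genes with 2 to 4 transcripts and 72.7% and 69.5% for genes with 1. A sum with decimals can hold parts of fragments that were divided with transcripts outside the gene. In 60 of the 217 genes the sum was whole in every sample where the gene was listed, and in 31 in none.

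**Figure D5:**
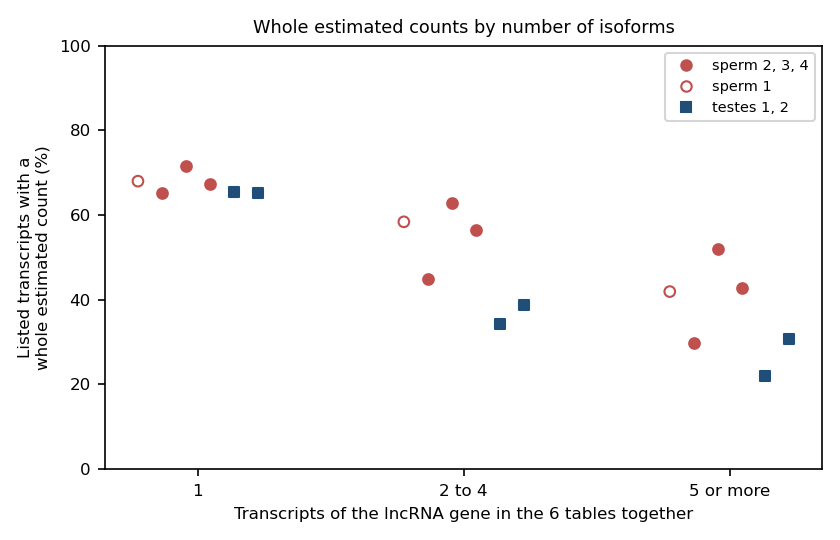
Percent of listed transcripts with a whole estimated count (within 0.01) in each sample, for lncRNA genes with 1, 2 to 4 and 5 or more transcripts in the 6 tables. Sperm replicates 2 to 4 average 68.1% for genes with 1 transcript and 41.5% for genes with 5 or more, and the testes samples 65.3% and 26.4%.

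The third measure was transcripts that the data cannot tell apart. Within the 217 genes there were 79 pairs of transcripts of equal length, in 35 genes. In 60 of these pairs, in 26 genes, the estimated counts were equal (within 0.02) in all 6 samples, but 37 of the 60 were listed in 1 sample only and thus equal at 0 in the rest. There were 23 pairs listed in 2 or more samples, in 12 genes, and 2 pairs listed in all 6. NONMMUT003858.2 and NONMMUT079307.1 of NONMMUG002482.2, both 1869 bases long, had 25.3, 16.4 and 10.5 counts each in sperm-2 to sperm-4, 12.2 in sperm-1 and 6.38 and 7.92 in testes. For such pairs the number of isoforms is a number of identifiers, and which of them is named dominant depends on the order of the list.

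The genes with the most identifiers were not those with the most reads. NONMMUG011411.2 had 19 transcripts but 12.5, 11 and 5.00 counts in sperm-2 to sperm-4, 0 in sperm-1 and 134 and 92.5 in testes. NONMMUT018343.2 (1142 bases) was on top in testes, with 48.7% and 41.4%, and the gene sum did not pass the test (edgeR adjusted p = 0.279). NONMMUG003416.2 had 16 transcripts and 46.9, 25 and 36 counts in sperm, 44.0 in sperm-1 and 30.5 and 20.6 in testes. Its FPKM of 29.6, 27.0 and 42.3 in sperm lay above 6.35 and 5.92 in testes, with an edgeR adjusted p of 0.0798, and its top transcript changed among the sperm samples.

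NONMMUG030424.2, also with 16 transcripts, was listed in 2 samples only, with 24 counts in sperm-2 and 29.0 in sperm-4. Sperm-1 and sperm-3 and both testes samples were at 0, so that sperm and testes overlapped at 0. The edgeR adjusted p was 0.00514, and 0.215 and 0.228 without testes-1 and testes-2. Against 3 counts per testes library the mean of sperm was at least 24.2-fold higher. Its dominant transcript by mean FPKM, NONMMUT049069.2 (471 bases), held 13.9%, but NONMMUT049121.2 and NONMMUT049127.2, of the same length, had the same 5.00 counts in sperm-4.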

How the data were processed

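Total RNA of 4 sperm and 2 testes samples had been depleted of rRNA with RNase H, fragmented and sequenced as paired ends. The authors removed adaptor and poor-quality reads and mapped to RefSeq, NONCODE and self-assembled transcripts with SOAPaligner/SOAP2, while the submitters' processing notes name HISAT and the build mm10. The counting program is not given in the sources used here. Each row of a deposited table is 1 transcript with its estimated count, not scaled for depth. The same row holds FPKM, for which the authors divided by transcript length and sample depth. A transcript not listed in a sample was taken as 0.

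The members and lists were chosen with earlier results of these data known. Transcripts were grouped by gene identifier, samples by their titles. By the methods each sperm sample was a pool of different mice, and the testes of these mice were arranged into 2 replicates, so p-values measure the spread between pools. Estimated counts were summed per gene or kept per transcript, rounded, and tested with edgeR's quasi-likelihood test (TMM, a minimum of 1 FPKM in any 2 of the 5 samples, Benjamini-Hochberg over all features). Isoform use was tested with diffSpliceDGE. Standard errors were derived from the F statistic. The main edgeR fits of gene sums, transcripts and isoform use were first tested on simulated counts. These were drawn at a lower dispersion than that fitted to the data, and the alternatives were not tested in this way. Per-sample measures were compared by exact permutation tests. Expected numbers at equal depth assumed Poisson counts. Named were the 8 genes with the highest level, the 6 with the largest rise and the 6 with the largest fall among called genes without overlap, the 8 with the lowest isoform use p among the 47 well-counted genes, up to 8 with one top transcript in sperm and another in testes, the 3 with the most transcripts, and any holding a transcript that the study numbered. The identifiers of 0 of the 217 genes matched the reference tables, so no coordinates or sequences are given. A floor of 3 counts equals 2.84 to 8.19 ppm of the counts in sperm and 1.05 and 1.15 in testes. The floors and the interval of the pooled ratio cover counting error only. No batch is named in the labels. Alternatives were another test (DESeq2, limma), another scaling, no filter, all 4 sperm samples, a replicate block and leaving out each sample. Samples of the same number were treated as paired only in the replicate block. Whether they shared mice was not tested. The tools used were DESeq2 1.42.0, limma 3.58.1 and edgeR 4.0.16 under R 4.3.3, with Python 3.11.15.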

Additional observations from a re-analysis of the deposited data

Results flagged for a closer look

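Among the named genes, the values of the 4 sperm samples were examined for a sample far from the others, taken as a gap to the nearest sample over the whole range above Dixon's 95% critical value. Of 33 sets tested 4 had such a sample. Chance marks about 1 in 20 where values are normally distributed, but a gene listed in only 1 sperm sample is always marked. That was so for NONMMUG017664.2 and NONMMUG028536.2. NONMMUG007197.2 was lowest in sperm-2, at 112.75 FPKM, with the other sperm samples at 137 to 142. NONMMUG030721.2 was lowest in sperm-3, at 107.38 FPKM against 179 to 184, where it rested on 14.2 counts. NONMMUG017664.2 was at 3.03 FPKM in sperm-2 and 0 in the other sperm samples. NONMMUG028536.2 was at 17.16 FPKM in sperm-1, the sample left out of the comparison, and 0 in the others. The part of library depth in these values was not tested.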

How the results depend on the processing

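With 1 sample left out at a time, 3 to 25 genes rose and 8 to 25 fell (10 and 25 with all samples), 7 to 47 transcripts rose and 7 to 60 fell (40 and 91), and 0 to 11 genes changed isoform use (11). With 1 testes sample, that sample was assumed to vary like the sperm group. By limma 16 genes fell at a pseudocount of 0.1, and 21 and 19 transcripts rose at pseudocounts of 1 and 0.1. DESeq2 found 48 transcripts that fell, and Simes adjustment 5 genes with changed isoform use. Without a filter 10 genes fell, 18 transcripts rose and 27 fell. With all 4 sperm samples 12 transcripts rose. The causes were not tested. With the replicate block and all 4 sperm samples 6 genes and 10 transcripts rose, 29 transcripts fell and isoform use changed in 4 genes. The correlations of deviations between samples of the same number were -0.0139 and -0.0855. They gave no sign that the numbers paired the samples but cannot exclude it. The block moved no other count by over 1.5 times. The difference in the share of the top transcript, 12.7 percentage points, was 20.3 as the probability that 2 counts share a transcript and 19.2 with a minimum of 5 counts. No called result changed its sign under the alternatives run. The percentage with the same dominant transcript ran from 58.6 to 76.0 over the alternatives, the ratio of the members' share of counts from 0.899 to 0.970 and the ratio of listed transcripts from 0.276 to 0.592. The median log2 fold change of all genes ran from -0.75 to -2.57. At this depth 47 of 217 genes reached 10 counts in each of 5 samples.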
